A study of Mus musculus with 16 samples.

Results

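The genes described here are the clustered histone genes of the mouse, chosen by symbol alone: every gene whose symbol begins with Hist1h, Hist2h, Hist3h or Hist4h was taken, which gave 67 of the 19439 genes listed in at least 1 library. Of these, 6 encode linker histone H1 and 61 encode core histones, with 18 for H2A, 18 for H2B, 12 for H3 and 13 for H4. A gene had to be listed with an FPKM of at least 0.01 in 1 library to be a member, and no fold change entered the choice. The family was nevertheless proposed with results of these data known, and it was proposed as a contrast of linker genes such as Hist1h1e with core genes. Counts of members that changed are therefore a description and support nothing on their own.

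The samples are skin lesions from 16 BALB/c mice, 8 weeks old, whose ears were treated with imiquimod (IMQ), a Toll-like receptor agonist used to model psoriasis, and RNA was sequenced from each mouse separately. In 8 mice lysophosphatidylcholine (LPC), a lipid made from phosphatidylcholine, was injected into the ear skin daily as 10 µl at 10 mM, and the other 8 received 10 µl of normal saline as vehicle. The labels give 6 consecutive injection days, with mice killed on day 4 or day 7, so vehicle and LPC mice formed 4 groups of 4 by treatment and day. The labels do not give the number of injections that the day 4 mice had received. No skin without IMQ was analysed here, so every difference below is one within IMQ-treated skin.

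Most histone genes of this family are single-exon genes that are transcribed when DNA is copied in S phase, and their mRNAs end in a stem-loop in place of a poly(A) tail. The stem-loop is bound by the stem-loop binding protein, encoded by Slbp, and the transcription of the clusters is driven by NPAT. H2A, H2B, H3 and H4 form the nucleosome core, and H1 binds the DNA where it enters and leaves the core. Several family members, Hist1h1c and Hist1h2bc among them, are also known to give polyadenylated mRNA in cells that do not divide. In skin, dividing cells lie mainly in the basal layer of the epidermis and in the hair follicle.

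All 67 genes were placed on GRCm38.p6, the reference build used here for positions. The Hist1 cluster held 54 of them on chromosome 13, between positions 21715711 and 23934913. The Hist2 cluster held 10 on chromosome 3, between 96219885 and 96270192. Hist3h2a and Hist3h2ba lay on chromosome 11, and Hist4h4 lay on chromosome 6.

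The sequences upstream of a few members are given because they show how linker and core genes differ in control sequence. Promoter windows from RefSeq on GRCm38.p6, reaching from 250 bases before to 50 bases after the annotated start, were found for 62 of the 67 genes. Each line below holds the 150 bases before the start, read 5′ to 3′ on the strand of the gene. Capitals mark the H1 box, which is AAACACA, the CCAAT box, the TATA box searched as TATAAA, and the octamer, which is ATTTGCAT. Each was searched on both strands, and no 2 of these motifs overlap in the lines shown.
Hist1h1e (chr13:23622559-23622708, minus strand): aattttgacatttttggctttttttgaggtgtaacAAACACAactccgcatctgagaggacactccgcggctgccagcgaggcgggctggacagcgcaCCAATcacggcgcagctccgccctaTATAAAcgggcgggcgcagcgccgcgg
Hist1h1d (chr13:23554882-23555031, plus strand): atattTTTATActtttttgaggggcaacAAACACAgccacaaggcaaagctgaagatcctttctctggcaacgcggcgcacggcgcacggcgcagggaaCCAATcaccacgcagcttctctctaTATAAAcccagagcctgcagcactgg
Hist1h1c (chr13:23738657-23738806, plus strand): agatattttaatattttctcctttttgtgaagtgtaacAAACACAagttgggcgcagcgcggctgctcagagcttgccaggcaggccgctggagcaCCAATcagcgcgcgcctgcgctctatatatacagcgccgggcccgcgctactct
Hist1h1a (chr13:23763518-23763667, plus strand): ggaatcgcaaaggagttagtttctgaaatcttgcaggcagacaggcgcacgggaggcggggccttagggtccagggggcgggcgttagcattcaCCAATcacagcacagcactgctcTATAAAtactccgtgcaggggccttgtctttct
Hist2h2bb (chr3:96269550-96269699, plus strand): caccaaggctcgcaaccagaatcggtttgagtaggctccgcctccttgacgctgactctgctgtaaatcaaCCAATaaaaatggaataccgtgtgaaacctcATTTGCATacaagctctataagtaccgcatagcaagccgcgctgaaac

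The H1 box AAACACA was found in 5 of 6 linker promoters, with Hist1h1a as the exception, and in 7.18% of all 32851 promoter windows. It was present in 2 of 18 H2A, 2 of 16 H2B, 0 of 10 H3 and 0 of 12 H4 windows. In Hist1h1e, Hist1h1d and Hist1h1c its first base lay 115, 122 and 112 bases before the start, so Hist1h1c, whose level behaved unlike the others below, carried it at a like distance. CCAAT was found in every H1, H2A, H2B and H3 window, in 3 of 12 H4 windows and in 37.4% of all windows. The octamer ATTTGCAT was found in 7 of 18 H2A and 7 of 16 H2B windows, in no H1, H3 or H4 window, and in 1.74% of all windows. GGTCCG, a motif of H4 promoters, was found in 11 of 12 H4 windows and in 8.25% of all windows. A member gene counted as matched where any of its windows held the motif, while the shares of all promoters count single windows. A match is a description of these letters and was not tested for binding.

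The 3′ stem-loop is shown because it is the feature that these mRNAs share. The pattern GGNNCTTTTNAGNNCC was searched on the sense strand of the GENCODE M21 transcripts of all 67 genes and was found for 44 of them, against 0.0875% of all 141767 transcripts. A gene was counted where any of its transcripts matched, while that share counts single transcripts. In the lines below the 16 bases of the stem-loop are in capitals, with 7 bases on either side.
Hist1h1e: acccaaaGGCTCTTTTCAGAGCCacccaca
Hist1h1c: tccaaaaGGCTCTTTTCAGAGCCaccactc
Hist2h2aa1: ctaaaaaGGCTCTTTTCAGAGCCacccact
Hist1h3e: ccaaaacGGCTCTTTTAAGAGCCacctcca
Hist1h4d: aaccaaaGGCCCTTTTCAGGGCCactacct
Hist1h4i: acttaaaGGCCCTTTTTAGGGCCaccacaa
The form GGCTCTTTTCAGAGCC was the most frequent, in 26 genes of the H1, H2A, H2B and H3 classes. The 11 H4 genes with a match carried other forms, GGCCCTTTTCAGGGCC in 7, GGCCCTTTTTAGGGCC in 2 and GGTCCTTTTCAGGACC in 2. Hist1h1e and Hist1h1c had the same 16 bases. No match in the other 23 says only that these letters are not in the annotated transcript. The GENCODE transcript runs on past the stem-loop by 1153 bases in Hist1h1e, by 840 in Hist1h1c and by 35 in Hist2h2aa1. The transcripts on which the authors counted had a length of 782 bases for Hist1h1e and 725 for Hist1h1c, against 1930 and 1560 in GENCODE, so reads from such longer ends would not have counted.

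Libraries held between 18704197 and 20131513 expected counts, and the 67 genes together took between 0.01144% and 0.01946% of them. Keratinocyte markers were abundant in every library: the 6 basal markers summed to between 11379 and 34476 CPM (counts scaled to normalized library size). Markers of tissue below the skin varied far more. The 8 skeletal muscle markers, among them Acta1 and Ckm, summed to between 2459 and 26841 CPM in vehicle day 4, 184.1 and 2236 in LPC day 4, 1623 and 7349 in vehicle day 7, and 228.3 and 13606 in LPC day 7. Of the LPC day 7 mice, 2 and 4 stood apart with 10753 and 13606 CPM of muscle markers and with 601.6 and 2837 CPM of the 6 adipocyte markers. Vehicle day 4 mouse 3 stood apart from its group with 2459 CPM of muscle and 64.2 CPM of the 6 neutrophil markers. In whole skin, fewer cells of a type and less RNA per cell cannot be told apart.

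A few genes made up most of the family's signal. On the FPKM scale, which adjusts for transcript length, Hist2h2aa1 averaged 68.2, Hist1h1c 52.9, Hist1h2bc 28.1 and Hist3h2a 11.6 over the 16 libraries. Together these 4 held 58.2% of the summed FPKM of the family, with a range of 35.6% to 76.0% over libraries. The median member averaged 1.34 FPKM. There were 29 members under 1 FPKM, 31 from 1 to 5 and 7 at 5 or more, and 24 members were listed in all 16 libraries.

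**Figure D1:**
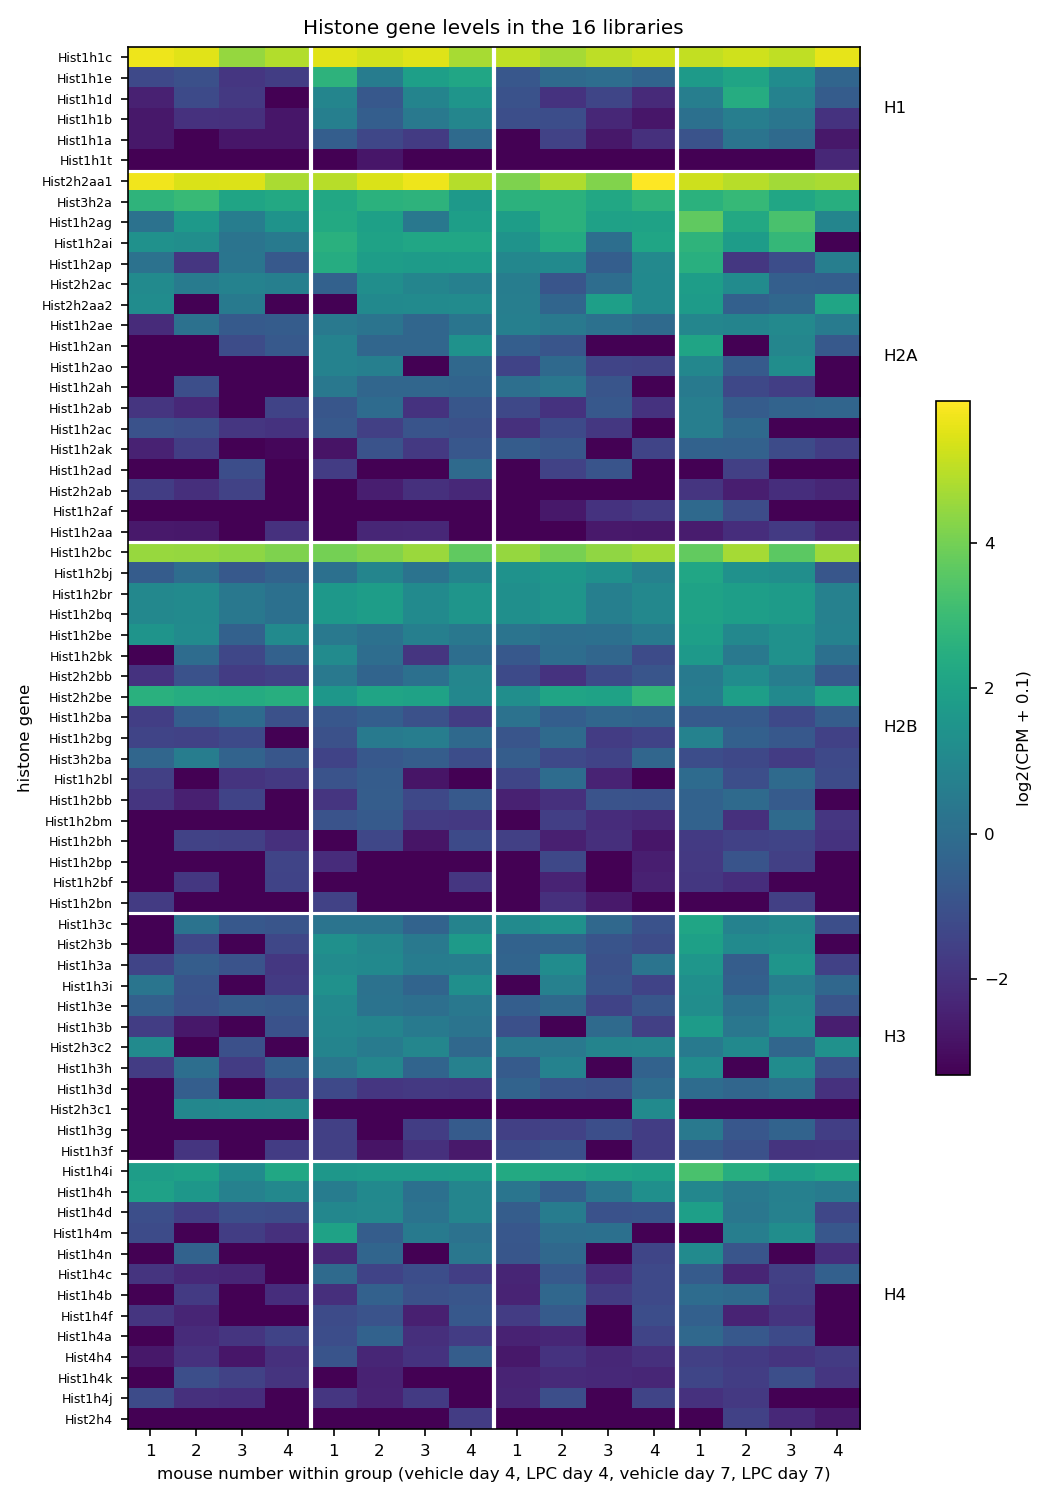
Level of each of the 67 histone genes (rows, ordered by mean FPKM within H1, H2A, H2B, H3 and H4) in each of the 16 libraries (columns), as log2 of CPM plus 0.1. Hist1h1c, Hist2h2aa1 and Hist1h2bc stay bright in all columns, while the other H1 rows and many core rows are darkest in vehicle day 4.

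Summed, the remaining 63 genes had their lowest mean in vehicle skin at day 4, with libraries that overlapped those of day 7. Single genes differed, and Hist2h2be and Hist1h4h had their highest mean there, at 5.42 and 2.59 CPM. The sum was 38.4, 41.6, 29.5 and 33.4 CPM in vehicle day 4 and 79.0, 66.8, 54.8 and 73.0 CPM in LPC day 4, so these groups did not overlap and the means stood in a ratio of 1.91. At day 7 it was 46.0, 61.4, 40.6 and 50.9 CPM with vehicle and 124.4, 73.2, 80.9 and 38.1 CPM with LPC, and here LPC mouse 4 lay below every vehicle mouse. The 4 highest genes summed to 106.7 ± 25.4 CPM (SD, n = 4) in vehicle day 4 and 101.4 ± 22.8 CPM (SD, n = 4) in LPC day 4, with overlapping libraries. They summed to 91.5 ± 26.7 and 94.2 ± 13.7 CPM at day 7, again overlapping.

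Among the linker genes, Hist1h1c (Entrez 50708; chromosome 13, 23738807 to 23739531), which encodes the subtype H1.2, was the abundant one. Its level was 52.1, 47.0, 22.5 and 29.8 CPM in vehicle day 4 and 46.5, 39.9, 45.5 and 26.7 CPM in LPC day 4. At day 7 it was 33.7, 26.3, 32.3 and 38.4 CPM with vehicle and 34.2, 39.1, 33.5 and 48.9 CPM with LPC. The groups overlapped at both days. The log2 difference between LPC and vehicle was 0.07 ± 0.25 (SE) at day 4 and 0.25 ± 0.25 at day 7, with adjusted p of 0.906 and 0.64 in edgeR's quasi-likelihood test. These p-values miss the threshold of 0.05, which does not show that the level was equal.

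Hist1h1e (Entrez 50709; chromosome 13, 23621777 to 23622558, minus strand), which encodes the subtype H1.4, was the histone gene that passed the test at day 4. It was counted 6, 8, 4 and 4 times in the vehicle day 4 libraries and 118, 28, 71 and 86 times in LPC day 4. In CPM these are 0.313, 0.378, 0.174 and 0.219 against 6.31, 1.39, 3.71 and 4.36. Every LPC mouse was above every vehicle mouse, and mouse 2 was the lowest of the LPC group. Hist1h1e rose with LPC at day 4 by 3.81 ± 0.57 (SE) on the log2 scale, a 14.0-fold difference with an adjusted p of 0.0249 in edgeR's quasi-likelihood test over 15782 genes. It was the 1 called member, where the test called 0.139% of all genes tested, 0.0950% as higher and 0.0444% as lower. The call was lost without any 1 of vehicle mice 1, 2 and 4 or LPC mice 1, 3 and 4 (adjusted p from 0.0931 to 0.136), fits in which no gene at all was called, while the log2 difference stayed between 3.48 and 4.09 over all 8 omissions. DESeq2 gave it an adjusted p of 5.58e-07.

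At day 7 the level of Hist1h1e was 0.468, 0.83, 0.903 and 0.698 CPM with vehicle and 3.26, 4.17, 2.17 and 0.721 CPM with LPC. Of the LPC mice, 1, 2 and 3 were above all vehicle mice and mouse 4 fell within their range. The log2 difference was 1.83 ± 0.51 (SE) with an adjusted p of 0.0584, and 2.15 with an adjusted p of 0.0208 without LPC mouse 4. The difference between the 2 LPC effects, day 7 minus day 4, was -1.97 ± 0.74 (SE) on the log2 scale with an adjusted p of 0.209.

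Hist1h1d (Entrez 14957; chromosome 13, 23555032 to 23555807, plus strand), which encodes H1.3, passed the test at day 7. Its level there was 0.405, 0.158, 0.284 and 0.117 CPM with vehicle and 1.45, 5.2, 1.61 and 0.542 CPM with LPC, so the groups did not overlap. It rose with LPC by 3.22 ± 0.80 (SE) on the log2 scale, or 9.29-fold, with an adjusted p of 0.0402 in edgeR's quasi-likelihood test. The highest value, 104 counts in LPC mouse 2, came from one of the mice rich in muscle markers, and the lowest LPC value, 10 counts, came from the other. The call was lost without any 1 of the 4 vehicle mice or LPC mice 1, 2 and 3, with adjusted p from 0.0541 to 0.127, and the smallest difference, 2.32, came without LPC mouse 2. DESeq2 called Hist1h1d too, while limma on FPKM and a fit with the replicate number as a block did not. At day 4 its counts were 2, 7, 4 and 0 with vehicle and 33, 10, 33 and 54 with LPC, a log2 difference of 3.32 ± 0.83 (SE) with an adjusted p of 0.0667.

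Hist1h1b (H1.5) and Hist1h1a (H1.1) were weaker and gave like differences at day 4 without passing the test. Hist1h1b was counted 1, 3, 3 and 1 times with vehicle and 28, 12, 24 and 36 times with LPC at day 4, a log2 difference of 3.61 ± 0.71 (SE) with an adjusted p of 0.0556. Hist1h1a was counted 1, 0, 1 and 1 times with vehicle and 11, 6, 4 and 16 times with LPC. With 3 counts in the vehicle group, its ratio per library size was 12.7, with an exact 95% interval of 4.01 to 64.2 that covers counting error only, and the adjusted p was 0.0782. The groups did not overlap for either gene. At day 7 Hist1h1b was counted 7, 7, 2 and 1 times with vehicle and 16, 29, 21 and 3 times with LPC, and Hist1h1a 0, 5, 1 and 3 against 7, 22, 15 and 1 times. LPC mouse 4 was again the lowest of its group for both, and the adjusted p-values were 0.0918 and 0.126. Hist1h1t, a linker gene of the testis, was at 0 in all libraries but LPC day 4 mouse 2, with 1 count, and LPC day 7 mouse 4, with 2, which is under the floor of 3 counts.

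**Figure D2:**
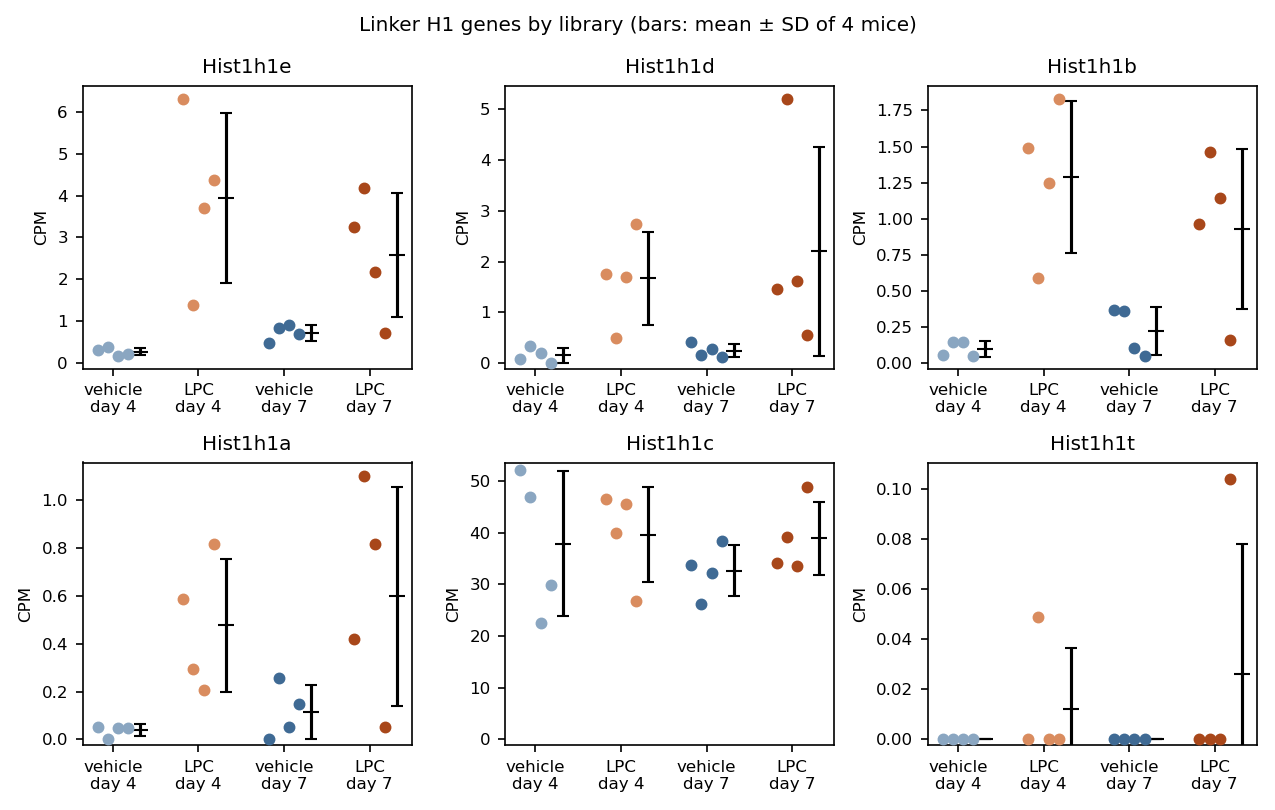
Level of each of the 6 linker H1 genes (CPM) in the 4 mice of each group, with the mean and SD beside the points; each panel has its own scale. Hist1h1e, Hist1h1d, Hist1h1b and Hist1h1a sit near 0 in vehicle day 4 and higher in all 4 LPC day 4 mice, whereas the groups overlap for Hist1h1c.

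The 5 linker genes other than Hist1h1c together had 0.499, 0.851, 0.558 and 0.317 CPM in vehicle day 4 and 10.2, 2.8, 6.86 and 9.73 CPM in LPC day 4. At day 7 they had 1.24, 1.61, 1.35 and 1.01 CPM with vehicle and 6.1, 11.9, 5.74 and 1.57 CPM with LPC. The groups were apart at day 4, and at day 7 LPC mouse 4 lay just under the highest vehicle mouse. Ratios of the means were 13.3 at day 4 and 4.87 at day 7. Hist1h1c accordingly held 97.6% to 99.1% of linker CPM in vehicle day 4 and 73.3% to 93.4% in LPC day 4. In day 7 skin it held 94.2% to 97.4% with vehicle and 76.6% to 96.9% with LPC. Hist1h1e held 0.595% to 0.79% of linker CPM in vehicle day 4 and 3.26% to 12% in LPC day 4.

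The ratio of all linker to all core CPM did not show this, since Hist1h1c dominates the numerator. On the log2 scale the ratio was -1.50 ± 0.41 (SD, n = 4) in vehicle day 4 and -1.40 ± 0.25 in LPC day 4, and -1.64 ± 0.34 and -1.48 ± 0.52 at day 7. With Hist1h1c and the abundant core gene Hist1h2bc left out it was -7.29 ± 0.44 in vehicle day 4 and -3.99 ± 0.94 in LPC day 4, a difference of 3.30. At day 7 it was -6.02 ± 0.59 and -4.37 ± 1.01, a difference of 1.65, with the highest vehicle mouse at -5.53 and the lowest LPC mouse at -5.46. The 5 scarce linker genes were thus further apart between LPC and vehicle than the core genes as a sum, which still held the abundant Hist2h2aa1. With both Hist2h2aa1 and Hist1h2bc left out, the core CPM sum had a ratio of means, LPC over vehicle, of 1.61 at day 4, without overlap. At day 7 that ratio was 1.45, with overlap. Single scarce core genes reached like log2 differences at day 4, such as 3.82 for Hist2h3b, while the median over the 41 core genes tested was 1.14. The contrast of linker with core genes, being the one for which the family was proposed, carries no test.

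Among core genes 41 of 61 passed the filter on low counts, beside 5 of 6 linker genes. The tested core genes comprised 12 for H2A, 13 for H2B, 10 for H3 and 6 for H4, and the 21 genes removed, Hist1h1t among them, have values but no fitted p. A gene could pass through the group in which it was high, so the medians here describe the genes tested and not the family. At day 4 the median log2 difference was 3.46 over the 5 linker genes, 1.14 over the 41 core genes and 0.00 over all genes. At day 7 these medians were 2.05, 0.54 and 0.02. By class the core medians at day 4 were 1.14 for H2A, 0.88 for H2B, 1.39 for H3 and 1.90 for H4, in which the fitted values of genes at 0 in 1 group depend on the prior count.

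**Figure D3:**
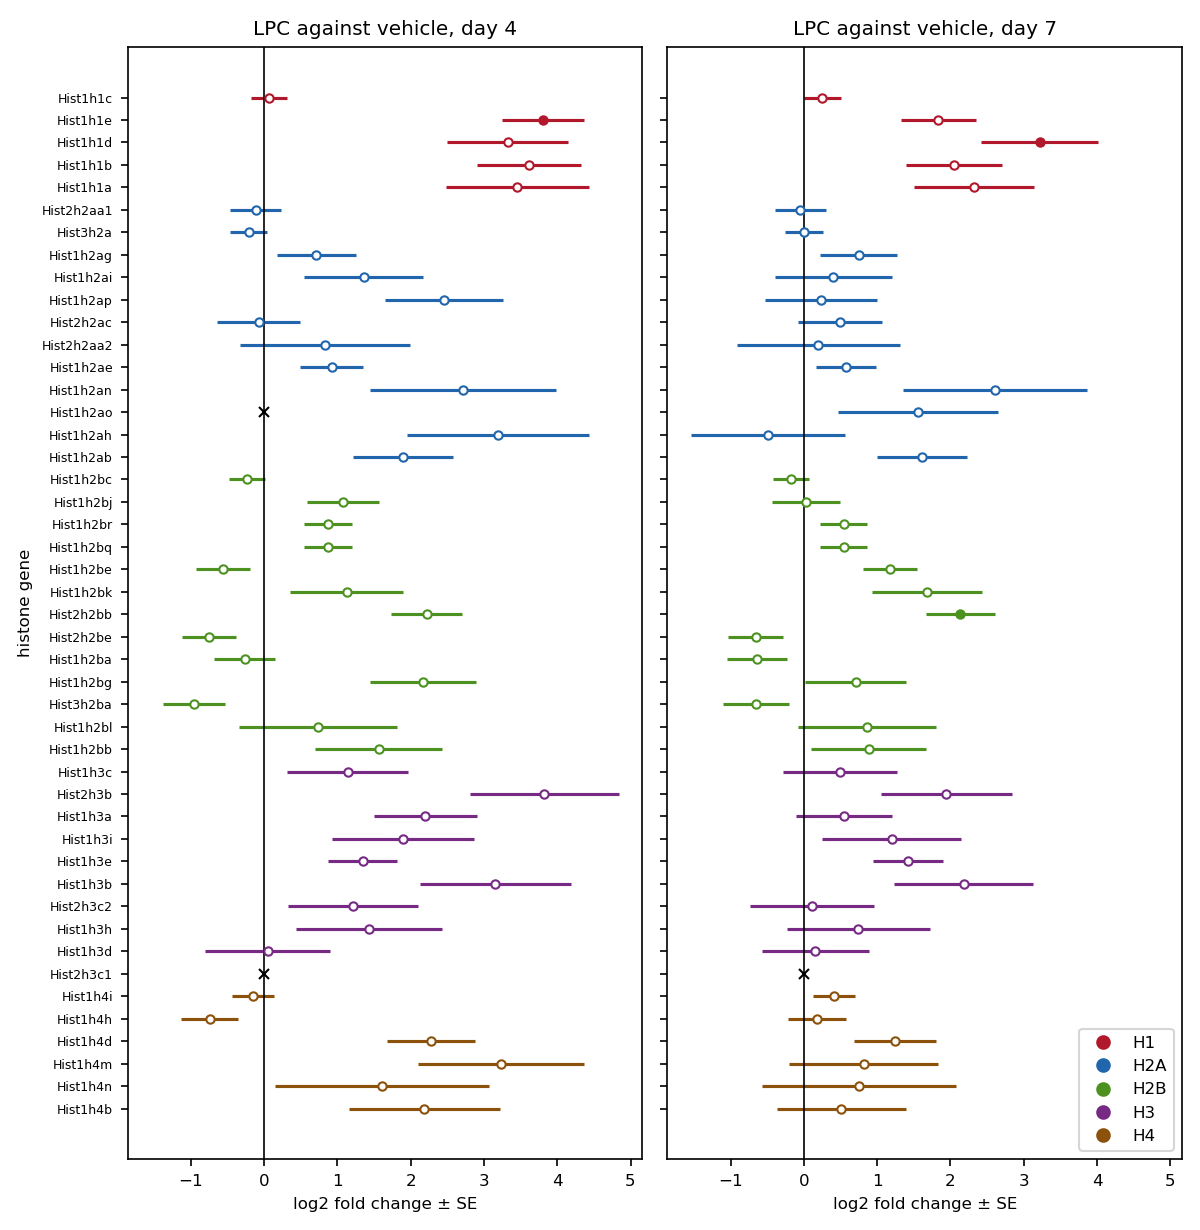
Log2 difference between LPC and vehicle at day 4 (left) and day 7 (right) for the 46 histone genes tested, with SE bars, coloured by class. Filled points are called (Hist1h1e at day 4, Hist1h1d and Hist2h2bb at day 7), and black crosses, placed at 0 for display only, stand for genes at 0 in every library of 1 group.

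Counted without a model, 21 of the 67 members had every LPC mouse above every vehicle mouse at day 4, where 7.43% of all genes tested did, and 1 had every LPC mouse below, where 8.67% did. The 21 were 4 linker genes, 4 for H2A, 6 for H2B, 4 for H3 and 3 for H4, with both Hist1h2bq and Hist1h2br counted although their values are identical. Among the 46 members tested, to which the shares over all genes correspond, there were 19 above and 1 below. Of all 21 members above at day 4, 19 lay in the Hist1 cluster, which holds 54 of the 67. The others, Hist2h2bb and Hist2h3b, lay in Hist2. At day 7 there were 9 such members above and 1 below, against 5.72% and 5.20% of all genes tested. Of the 46 tested members 5 were above and 1 below, and the 4 others above, Hist1h2aa, Hist1h4k, Hist2h2ab and Hist4h4, are genes of low count. Hist1h1d and Hist2h2bb were the 2 members above at both days. These comparisons do not share mice, since separate vehicle mice were killed at each day.

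Of the H2B genes, whose protein pairs with H2A, Hist2h2bb (chromosome 3, 96269700 to 96270192, plus strand) rose with LPC at day 7. Its level was 0.327, 0.155, 0.326 and 0.44 CPM with vehicle and 1.32, 2.21, 1.41 and 0.498 CPM with LPC, with mouse 4 only just above the vehicle range. The log2 difference was 2.13 ± 0.47 (SE), or 4.39-fold, with an adjusted p of 0.0277 in edgeR's quasi-likelihood test. With Hist1h1d it was 1 of 2 members called there, where 3.83% of all genes tested were called, 2.38% as higher and 1.44% as lower. The call was lost without any 1 of the 4 vehicle mice or LPC mice 1 and 3, with adjusted p from 0.0512 to 0.0758, and it held without LPC mouse 2 and without LPC mouse 4. At day 4 the level was 0.159, 0.408, 0.21 and 0.246 CPM with vehicle and 1.23, 0.696, 0.97 and 1.83 CPM with LPC, a log2 difference of 2.22 ± 0.48 (SE) with an adjusted p of 0.057.

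The other H2B genes did not follow one course. Hist1h2bc had 22.7, 22.1, 20.9 and 17.9 CPM in vehicle day 4 and 16.1, 18.7, 23.5 and 12.9 CPM in LPC day 4, a log2 difference of -0.23 ± 0.25 (SE) with an adjusted p of 0.637. Hist2h2be was the member with every LPC mouse below at day 4, at 5.11 to 5.76 CPM with vehicle and 1.86 to 4.21 CPM with LPC, a log2 difference of -0.75 ± 0.37 with an adjusted p of 0.289. Hist1h2bj ranged from 0.497 to 0.893 CPM in vehicle day 4, from 0.966 to 1.76 in LPC day 4 and from 1.57 to 2.88 in vehicle day 7. It was the member with the lowest p for day 7 against day 4 in vehicle mice, a log2 difference of 1.85 ± 0.49 (SE) with an adjusted p of 0.208. Hist1h2bq and Hist1h2br had identical values in all 16 libraries, so they count as 1 measurement, with 0.986 to 2.05 CPM in vehicle day 4 and 2.09 to 3.52 CPM in LPC day 4. Without Hist1h2bc the H2B genes summed to 13.9 ± 2.08 CPM (SD, n = 4) in vehicle day 4 and 16.8 ± 2.22 CPM in LPC day 4, with overlap.

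Of the H2A genes, Hist2h2aa1 had 53.9, 43.3, 44.1 and 27.5 CPM in vehicle day 4 and 30.9, 42.7, 52.4 and 30.1 CPM in LPC day 4. Its groups overlapped at day 7 too, where vehicle mouse 4, at 62.0 CPM, was far above the other vehicle mice at 17.8 to 28.7 CPM. Hist3h2a had 4.21 to 7.61 CPM in vehicle day 4 and 3.03 to 6.3 CPM in LPC day 4. Without Hist2h2aa1 the H2A genes summed to 12.4 to 16.9 CPM in vehicle day 4 and 22.3 to 28.2 CPM in LPC day 4, without overlap and with a ratio of means of 1.78. Hist1h2ap (0.18 to 1.13 against 3.29 to 5.27 CPM) and Hist1h2ai (1.1 to 2.49 against 3.96 to 5.81 CPM) were above in every LPC mouse, with adjusted p of 0.117 and 0.382. Hist1h2ao was at 0 in all vehicle day 4 mice and at 1.65, 1.51, 0 and 0.787 CPM with LPC, so the groups overlapped. Its adjusted p was 0.0786 in edgeR's quasi-likelihood test. The LPC mean was 6.59-fold a floor of 3 counts per library, a value that leaves out the spread between LPC mice. RSEM divides reads among similar genes, so a 0 in this gene is not certain. Hist1h2ag, the third of the H2A genes by mean FPKM, overlapped at both days.

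The H3 genes as a class were apart at day 4. They summed to 4.5, 6.37, 4.06 and 5.01 CPM in vehicle day 4 and 15.7, 12.2, 9.35 and 14.1 CPM in LPC day 4, a ratio of means of 2.58. At day 7 the sums were 7.35, 11.7, 5.64 and 8.61 CPM with vehicle and 25, 10.6, 17.1 and 5.35 CPM with LPC, with LPC mouse 4 lowest of all. Hist1h3c, the highest H3 gene by mean FPKM at 2.75, overlapped between the groups: it had 0, 1.06, 0.488 and 0.439 CPM in vehicle day 4 and 1.09, 1.08, 0.684 and 1.67 CPM in LPC day 4. Its log2 difference was 1.14 ± 0.83 (SE) with an adjusted p of 0.468. Hist2h3b, which lies next to Hist2h2bb, had 0, 0.296, 0 and 0.292 CPM in vehicle day 4 and 2.45, 1.86, 1.24 and 3.21 CPM in LPC day 4, a log2 difference of 3.82 ± 1.02 (SE) with an adjusted p of 0.0695. Hist1h3b (adjusted p of 0.115) and Hist1h3a (0.11) were also above in every LPC day 4 mouse. Hist1h3d, Hist1h3h and Hist1h3i overlapped, with adjusted p of 0.98, 0.447 and 0.302. Hist2h3c1 ran the other way: it had 1.87 to 2.02 CPM in 3 vehicle day 4 mice, 0 in the other and 0 in all LPC mice at both days. In vehicle day 7 it had 2.05 CPM in mouse 4 and 0 in the others. Hist2h3c2 had 2.05, 0, 0.381 and 0 CPM in vehicle day 4 and 0.782 to 1.83 CPM in LPC day 4, and 1.24 to 1.79 CPM in vehicle day 7. These are near-identical copies between which RSEM divides reads, so neither value alone is certain.

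The H4 genes differed among themselves, though they encode the same protein. Hist1h4i, the highest of them at 10.9 FPKM, had 3.45 ± 1.01 CPM (SD, n = 4) in vehicle day 4 and 3.08 ± 0.11 in LPC day 4, a log2 difference of -0.15 ± 0.29 (SE) with an adjusted p of 0.815. Hist1h4h had 1.59 to 3.91 CPM in vehicle day 4 and 0.987 to 2.0 CPM in LPC day 4. Hist1h4d had 0.364, 0.23, 0.37 and 0.35 CPM in vehicle day 4 and 1.87, 1.98, 1.06 and 1.75 CPM in LPC day 4. Its log2 difference was 2.28 ± 0.60 (SE) with an adjusted p of 0.0689, and 1.24 ± 0.56 with an adjusted p of 0.235 at day 7. As a class H4 summed to 7.53 ± 1.79 CPM (SD, n = 4) in vehicle day 4 and 10.5 ± 2.02 CPM in LPC day 4, with overlap.

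**Figure D4:**
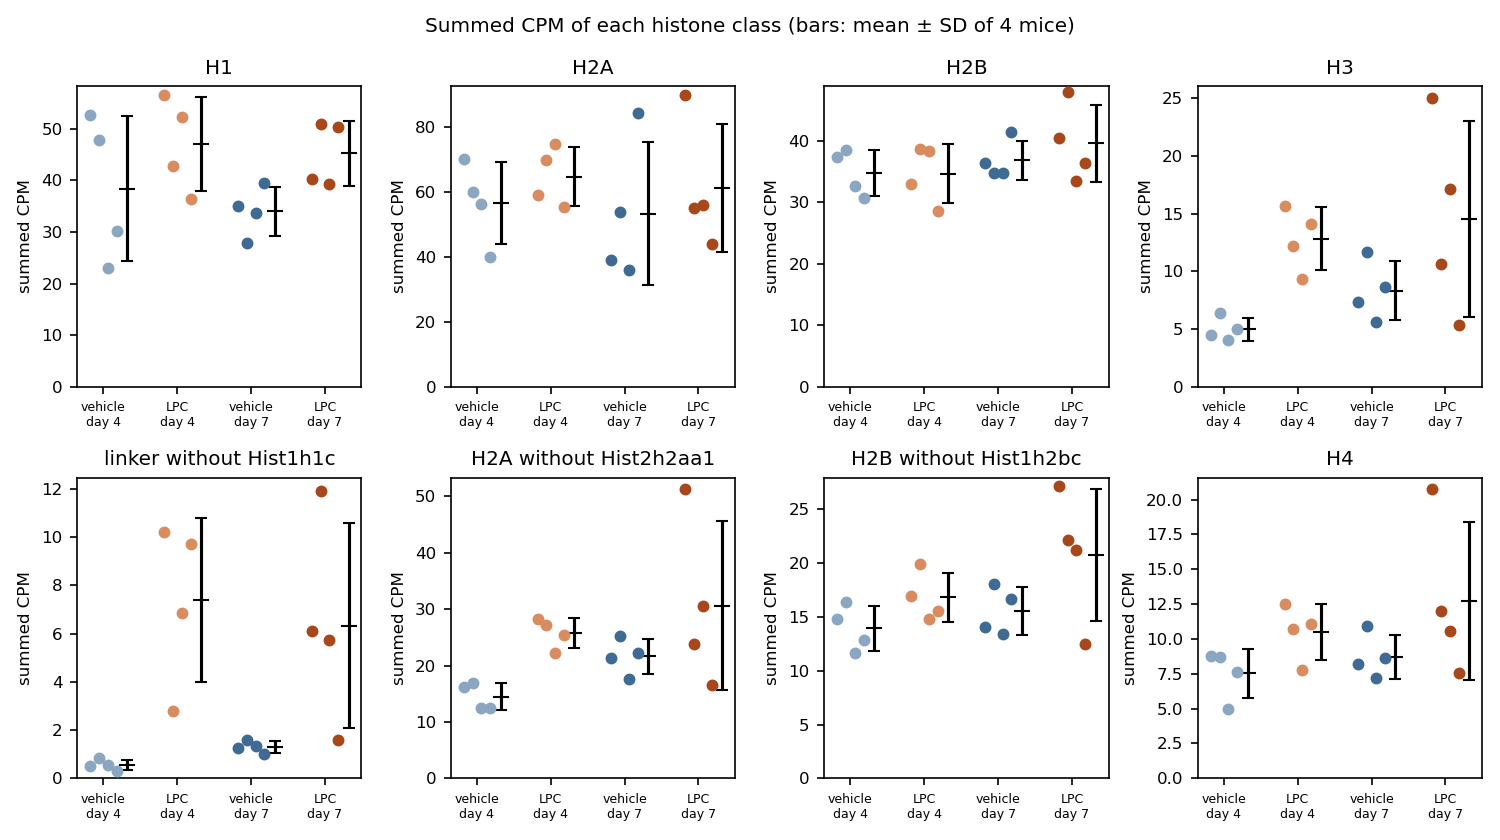
Summed CPM of each histone class in the 4 mice of each group, with mean and SD; the lower panels leave out the most abundant H1, H2A and H2B gene, and H4 is shown whole. The day 4 groups separate for the linker genes without Hist1h1c, for H2A without Hist2h2aa1 and for H3, and overlap for the others.

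How firmly a single gene's value stands differs by class, because near-identical copies share reads. Of the expected counts above 0, 40.5% were whole to within 0.005 for H1 genes, against 0.87% for H2A, 7.35% for H2B, 0.633% for H3, 13.2% for H4 and 63.2% for all genes. Values of single core genes therefore mostly hold divided reads, and a class sum is less exposed to that division.

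Between day 4 and day 7 no histone gene was called. In vehicle mice edgeR called 0% of all genes tested, 7 of the 46 members and 2050 of the 15782 genes had an unadjusted p under 0.05, and DESeq2 called 238 genes with 1 member, Hist1h2bj, which was higher at day 7. Without a model, 7 of the 67 members were above in every vehicle day 7 mouse and 0 below. Among the 46 members tested it was 6 and 0, where 3.43% and 2.77% of all genes tested were. Hist1h1e was among the 7, with a log2 difference of 1.36 ± 0.56 (SE) and an adjusted p of 0.327. In LPC mice edgeR called 11.0% of all genes tested, 6.87% as higher and 4.13% as lower, and 0 members. There 2 of the 46 members and 4854 of all genes had an unadjusted p under 0.05, and DESeq2 called 3073 genes with 1 member, Hist1h4i, which was higher at day 7. Without a model 4 of the 67 members were above and 0 below. Among the 46 members tested it was 3 and 0, against 8.85% and 8.22% of all genes tested. For the difference between the 2 LPC effects edgeR called 0% of all genes and 0 members, with 4 of the 46 members and 2674 of all genes at an unadjusted p under 0.05, and DESeq2 called 585 genes and 0 members. Of the 5 linker genes tested, Hist1h1e, Hist1h1d, Hist1h1b and Hist1h1a had log2 differences of -1.97, -0.11, -1.56 and -1.13 there. Hist1h1c had 0.19 ± 0.35 (SE). Over the 46 members 16 values were above 0 and 30 below. The member with the smallest p was Hist1h2be, at 1.74 ± 0.52 (SE) with an adjusted p of 0.172 in edgeR's quasi-likelihood test.

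The genes that work with histones were measured beside them, in lists chosen with earlier results known. None of 11 tested replacement histones, 17 histone mRNA processing genes, 12 histone transcription genes, 18 chaperones, 30 DNA replication genes and 20 mitosis genes was called for LPC at day 4 or day 7. For DNA replication 28 of 30 had a higher value with LPC at day 4, with a median log2 difference of 0.33, and 17 of 30 at day 7, with a median of 0.05. For mitosis it was 20 of 20 with a median of 0.36, and 10 of 20 with a median of -0.00. Slbp had 26.0 ± 3.4 CPM (SD, n = 4) in vehicle day 4 and 35.0 ± 3.4 CPM in LPC day 4, without overlap but with a log2 difference of 0.43 ± 0.19 (SE) and an adjusted p of 0.236. Npat overlapped, at 12.6 to 20.5 against 17.6 to 25.2 CPM. H3f3b, which encodes the replacement histone H3.3 made outside S phase, had 477.3 to 613.6 CPM with vehicle and 784 to 1280.0 CPM with LPC at day 4, a log2 difference of 0.80 ± 0.19 with an adjusted p of 0.0652. H1f0, the linker variant of resting cells, overlapped, at 182.4 to 310.6 against 211.7 to 339.6 CPM. Pcna, the sliding clamp of DNA replication, was above in every LPC mouse at day 4, at 121.1 to 140.5 against 74.2 to 110.2 CPM, with a log2 difference of 0.42 ± 0.21 (SE) and an adjusted p of 0.297. Mki67, Top2a, Rrm2, H2afz and H2afx overlapped, with log2 differences from 0.16 to 0.51 and adjusted p from 0.438 to 0.808. Asf1a, a histone chaperone, was the 1 gene of these lists called between days, the cell type markers not being among them. With LPC it fell by 0.50 ± 0.13 (SE) on the log2 scale from day 4 to day 7, with an adjusted p of 0.0305 in edgeR's quasi-likelihood test. Its level was 20.4, 19.2, 21.2 and 16.8 CPM in LPC day 4 and 13.8, 11.9, 15.5 and 13.6 CPM in LPC day 7.

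Sums of cycle genes and of scarce linker genes stood side by side as follows. Vehicle day 7 had 628.3 to 1393 CPM of mitosis genes with 1.01 to 1.61 CPM of the 5 scarce linker genes. LPC day 4 had 494.8 to 943.3 CPM of mitosis genes with 2.8 to 10.2 CPM of those linker genes. DNA replication genes summed to 948.9 to 1792 CPM in vehicle day 7 and to 1141 to 1345 CPM in LPC day 4. LPC day 7 ranged widely, with 671.9 to 1403 CPM of mitosis genes, 1099 to 1858 CPM of DNA replication genes and 1.57 to 11.9 CPM of linker genes. Within it, mice 1 and 3 had 1305 and 1403 CPM of mitosis genes with 6.1 and 5.74 CPM of linker genes. Mouse 2 had 866.7 with 11.9 CPM, and mouse 4 had 671.9 with 1.57 CPM. The part of cell division in the linker values was not tested.

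**Figure D5:**
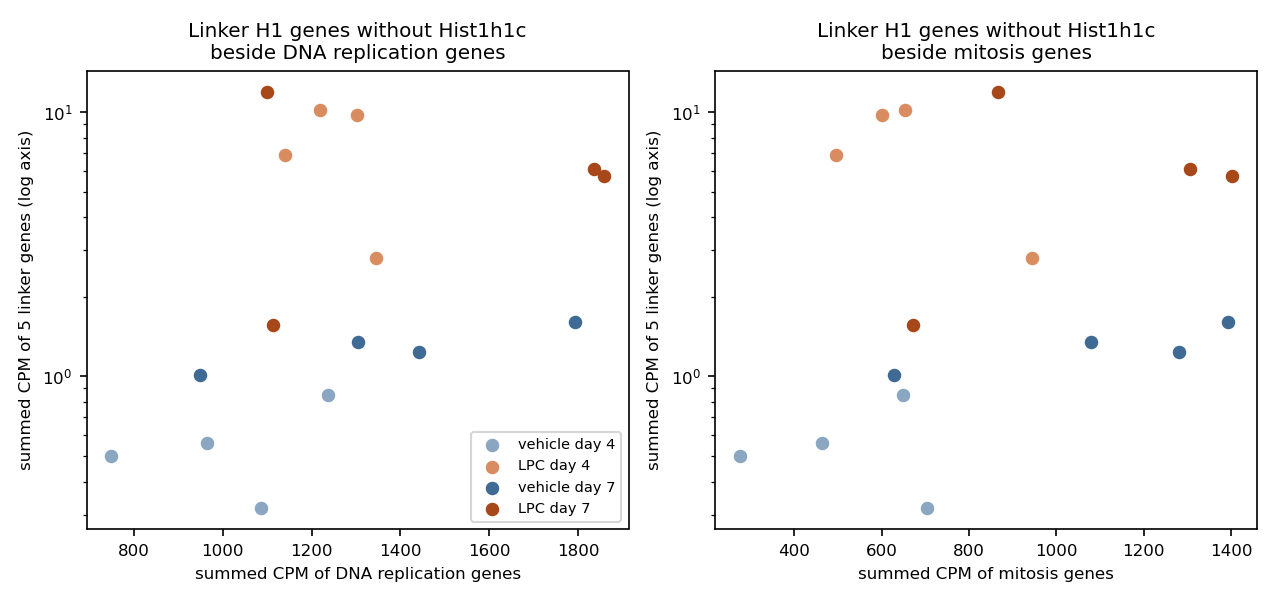
Summed CPM of the 5 linker genes other than Hist1h1c (vertical, log axis) against the summed CPM of 30 DNA replication genes (left) or 20 mitosis genes (right), with 1 point per mouse coloured by group. LPC day 4 mice lie at 2.8 to 10.2 and vehicle day 7 mice at 1.01 to 1.61 on the vertical axis, with mitosis sums of 494.8 to 943.3 and 628.3 to 1393 CPM.

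Markers of other tissue moved with the day 4 groups as well. All 8 skeletal muscle markers had lower values with LPC at day 4 and none was called, with a median log2 difference of -4.24, and none was at 0 in a whole group. All 6 adipocyte markers were lower too, at 144.6 to 1021 CPM in sum with vehicle and 70.9 to 317.8 CPM with LPC. Vehicle day 4 mouse 3, with a muscle sum of 2459 CPM, had 0.558 CPM of the 5 scarce linker genes. LPC day 4 mouse 1, with 2236 CPM of muscle, had 10.2 CPM of them, the highest of its group. This pair also differed in the neutrophil markers, at 64.2 CPM in the vehicle mouse and 2162 CPM in the LPC mouse. With a muscle marker score in the fit, an alternative added after seeing the data, the log2 difference of Hist1h1e at day 4 was 4.19 with an adjusted p of 0.132, and 0 genes of any kind were called. At day 7 the same fit called 3 members of 1065 genes, where 2 members of 604 genes were called with all mice. Leaving out LPC mice 2 and 4, chosen for their muscle and fat markers, called 15 of 50 members tested and 3376 genes. That fit kept 2 LPC mice at day 7, and its calls rose over all genes as well as among members. The number of genes it tested is not given here, so no share over all genes stands beside the 15. Mouse 4, left out there, had the lowest sum of the 5 scarce linker genes in its group. The 6 hair follicle markers all had lower values with LPC at day 4, at 118.9 to 2769 CPM in sum with vehicle and 46.4 to 849.7 CPM with LPC. The 4 Schwann cell markers summed to 281.5 to 381.7 CPM with vehicle and 152.8 to 233.8 CPM with LPC at day 4, without overlap. Their mean log2 CPM (prior count 2) did overlap, at 5.4 to 5.9 with vehicle and 5.01 to 5.48 with LPC. With LPC 3 of these markers had a lower value and 1 a higher value, and 0 were called. The 6 basal keratinocyte markers, in the layer that holds dividing cells, had sums of 11379 to 18466 CPM with vehicle and 16801 to 18615 CPM with LPC, which overlap, while their mean log2 CPM (prior count 2) was 9.82 to 10.18 with vehicle and 10.2 to 10.49 with LPC, which does not. At day 7 the 6 neutrophil markers had higher values with LPC, 1 of them called, at 193.7 to 4854 CPM in sum with vehicle and 4426 to 12683 CPM with LPC. The 6 suprabasal keratinocyte markers summed to 19494 to 25257 CPM with vehicle and 4288 to 9558 CPM with LPC at day 7, and 4 of the 6 were called lower. The part of these other cell types in the histone results was not tested.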

How the data were processed

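RNA-seq libraries of 16 mice were used, grouped by treatment and day from the sample titles, because day numbers in the deposited file names differ from the titles. According to the labels' protocols, total RNA was sequenced by the authors (BGISEQ-500), Bowtie2 aligned the reads to GRCm38, and RSEM estimated gene levels. Bowtie2 and GRCm38 also stand in the submitters' processing notes. Tool versions, strand setting and any selection of poly(A) RNA remain not given in the sources used here. A poly(A) selection would lower histone mRNAs without a tail. The deposited files hold an expected count, which RSEM divides among similar genes, and an FPKM value per gene, both made by the authors, and a transcript length. The lowest deposited FPKM was 0.01, and a gene not listed in a library was taken as 0.

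Expected counts were rounded and tested with edgeR 4.0.16 (R 4.3.3): filterByExpr kept 15782 genes and removed 3657, TMM scaled the libraries, and the quasi-likelihood fit took all 16 libraries, with a mean for each group (common dispersion 0.122, a coefficient of variation of 35%). A gene was called where its adjusted p (Benjamini-Hochberg, over all genes tested) was below 0.05. SEs were derived from the log2 difference and the F statistic. CPM used TMM-scaled sizes, on which 3 counts, the limit that a count of 0 allows, were 0.145 to 0.181 CPM. Floors and intervals cover counting error only. No 2 libraries of a group agreed within sampling noise: the lowest chi-square per gene was 15.89 over genes with a sum of at least 10. Mice are separate animals, so the spread is between animals.

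Members, gene lists, motifs and tests were chosen with earlier results of these data known. Genes named are all linker members, the 3 core genes per class with the highest mean FPKM, called members, called genes of the lists (up to 4 a list) and a panel of 10; further core genes were named after their values were seen. Alternatives were median-of-ratios size factors, no filter, DESeq2 1.42.0, a stricter filter (at least 8 libraries with 1 CPM), limma 3.58.1 on log2 of FPKM plus 0.1 or 1, the groups compared alone, a replicate block and each mouse left out; a muscle marker score, LPC day 7 mice 2 and 4 left out and the linker ratio without Hist1h1c alone were added after seeing the data. The edgeR test was tested on simulated data. List symbols were matched by name or synonym; Symplk and Trac were not matched.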

Additional observations from a re-analysis of the deposited data

Results flagged for a closer look

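In groups of 4 mice, 5 of 104 sets of values, from named members, class sums and the linker-to-core ratio, held 1 mouse far from the others, by a criterion that chance meets in about 1 of 20 groups. Hist1h1a was at 0 CPM in vehicle day 4 mouse 2, with 0.0483 to 0.0529 CPM, or 1 count each, in the other 3. Hist1h1t was at 0.0489 CPM in LPC day 4 mouse 2 and at 0.104 CPM in LPC day 7 mouse 4, with 0 in the other mice of both groups. Hist1h2ag was at 5.97 CPM in vehicle day 7 mouse 2, above 3.52 to 3.93 CPM in the others. Hist1h4d was at 0.23 CPM in vehicle day 4 mouse 2, below 0.35 to 0.37 CPM in the others.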

How the results depend on the processing

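No result changed direction past its threshold. For LPC at day 4, 1 member was called; DESeq2 called 11 (of 1104 genes) and a fit of the compared groups alone 12 (of 1333), while the stricter filter, which tests 21 members and not Hist1h1e, the replicate block and the muscle score called 0, and leaving out 1 mouse gave 0 to 4. The highest, 4 (of 683 genes), came without vehicle mouse 3, and 2 (of 35) came without LPC mouse 2, against 22 genes with all mice. For LPC at day 7, 2 members (of 604 genes) were called. DESeq2 called 5 (of 1448) and the replicate block 0 (of 351). At either pseudocount limma called 1 (of 522 and 530), which was Hist2h2bb and not Hist1h1d. The stricter filter (21 members tested) and the compared groups alone (32 members tested) called 0, but neither tested Hist1h1d or Hist2h2bb. The fit without LPC mice 2 and 4 tested 50 members and called 15 (of 3376 genes, 2 of the 15 lower). Leaving out 1 mouse gave 0 to 6, with 6 (of 697) without LPC mouse 4. Between days, DESeq2 called 1 with vehicle and 1 with LPC, the fit without LPC mice 2 and 4 called 2 with LPC, and leaving out 1 mouse gave 0 to 0 with vehicle, 0 to 1 with LPC (1 without LPC day 7 mouse 1 or 3) and 0 to 1 for the difference of effects (1 without vehicle day 4 mouse 3). The log2 linker-to-core ratio, LPC minus vehicle, was 0.10 at day 4 and 0.16 at day 7. By medians of genes it was 1.23 and 1.39, without Hist1h1c and Hist1h2bc 3.30 and 1.65, and without Hist1h1c alone 3.41 and 1.73. Leaving out 1 mouse gave -0.10 to 0.20 and -0.03 to 0.38, and leaving out LPC day 7 mice 2 and 4 gave -0.22 at day 7. From summed FPKM the mean ratio was -1.84 with vehicle and -1.87 with LPC at day 4, and -2.03 and -1.94 at day 7. The cause of these changes was not tested. The labels do not say whether replicate numbers mark a litter, day or batch. Correlations ran from -0.60 to 0.54 for same-numbered libraries and from -0.56 to 0.63 for the 72 other pairs between groups. Of the same-numbered pairs 9 of 24 were over 0.1, and 2 of 16 libraries correlated best with their own number. Such correlations cannot exclude a shared batch. Many members have few counts, so a difference that was not called may be one not detectable at this depth.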
